A study of Mus musculus with 6 samples.

Results

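The MHC class I antigen presentation genes described here are 10 mouse genes chosen by name: H2-K1, H2-D1, B2m, Tap1, Tap2, Tapbp, Nlrc5, Psmb8, Psmb9 and Psmb10, among 21992 protein-coding genes of the annotation. MHC class I molecules carry short peptides, cut from proteins of the cell interior, to the cell surface, where T cells inspect them. The heavy chains H2-K1 and H2-D1 pair with the light chain B2m, and the immunoproteasome subunits Psmb8, Psmb9 and Psmb10 cut the peptides. The transporter formed by Tap1 and Tap2 moves the peptides into the endoplasmic reticulum, and Tapbp (tapasin) helps to load them. Nlrc5 is a transactivator of MHC class I genes. The promoters of class I genes are known for binding sites of NF-kappa B and of interferon regulatory factors (IRF).

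The study asked where the cell cycle kinase CDK6, which has no DNA-binding domain of its own, sits on chromatin, and whether loss of its kinase activity changes that. Chromatin immunoprecipitation with an anti-HA antibody was followed by sequencing in BCR-ABL(p185)+ pre/pro-B cell lines of a C57BL/6 background, which lacked their own Cdk6 (Cdk6-/-) and overexpressed either HA-tagged CDK6 (CDK6-WT) or HA-tagged kinase-inactive CDK6-K43M from a retroviral plasmid. All lines therefore shared the BCR-ABL oncogene and the loss of endogenous CDK6, and the tagged protein was not at its natural level. Each variant had 2 libraries, and the labels do not say whether a replicate number stands for a separate line, culture or day, so that the spread between libraries may be technical. The 2 input libraries were not analysed here.

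Each library had its own list of peaks, and the 4 lists held 34729 to 39797 peaks. A gene counted as having a promoter peak where a peak overlapped the stretch from 2000 bp before to 200 bp after any of its annotated transcript starts. The strength of a peak was given as its percentile within its own list by −log10 q, so that 100 is the strongest peak of a library. Distances to a gene are from its main transcript start, with negative values upstream, and coordinates are those of mm10. As a check of the cell type, 9 of 10 B-lineage marker genes had a promoter peak in all 4 lists and the tenth, Rag1, in both replicate 2 lists only. None of 5 T-lineage markers (Cd3d, Cd3e, Cd3g, Cd4 and Cd8a) had one in any list. Of 8 myeloid and erythroid markers Lyz2 had one, in 3 lists, and Csf1r, Elane, Gata1, Hba-a1, Itgam, Klf1 and Mpo had none.

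The promoter sequences at the heart of the results are those under the summits. For H2-K1 and B2m, the 200 bases upstream of the main start are shown because the summits fell in or beside them, with the matches to an IRF motif (AANNGAAA), a kappa B motif (GGGGATTCC) and the NFY motif (CCAAT), read on either strand, in capitals. The H2-K1 stretch lies on the minus strand at chr17:34000348-34000547 and the B2m stretch on the plus strand at chr2:122147486-122147685.
H2-K1: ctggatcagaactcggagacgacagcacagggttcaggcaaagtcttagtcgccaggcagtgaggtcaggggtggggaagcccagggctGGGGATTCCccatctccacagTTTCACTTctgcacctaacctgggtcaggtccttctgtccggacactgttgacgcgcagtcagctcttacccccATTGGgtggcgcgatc
B2m: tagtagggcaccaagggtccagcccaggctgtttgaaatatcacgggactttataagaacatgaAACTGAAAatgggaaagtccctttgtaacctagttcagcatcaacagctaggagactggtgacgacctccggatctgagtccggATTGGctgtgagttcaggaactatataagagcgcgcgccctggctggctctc
The H2-K1 stretch held the kappa B match from −111 to −103, the IRF match from −90 to −83 and the NFY match from −16 to −12. The B2m stretch held the IRF match from −136 to −129 and the NFY match from −52 to −48.

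Shorter stretches of at most 30 bases show the IRF and kappa B matches within 100 bp of the highest summit of the other genes, again with the matches in capitals. The H2-D1 stretch (chr17:35262923-35262951) lies in the annotated first exon, from 193 to 221, those of Psmb8 (chr17:34198337-34198366) and Tap2 (chr17:34204489-34204518) lie inside their genes, and that of Nlrc5 (chr8:94434382-94434411) spans the main start.
H2-K1: GGGGATTCCccatctccacagTTTCACTT
H2-D1: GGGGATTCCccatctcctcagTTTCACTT
Tap2: cggcagtgAAGTGAAAGCGAAAgccgcggg
Psmb8: actgtggcTTTCGCTTTCACTTccttgtcg
Nlrc5: tcagtggccacTTTCAGTTtccacagagcg
The kappa B and IRF stretches of H2-K1 and H2-D1 were equal at 28 of 29 positions. The Tap2 and Psmb8 stretches each held overlapping IRF matches, which were equal at 14 of 14 positions when one gene was read on its other strand. The summit window of a gene came from 1 library, that in which its strongest promoter peak had the highest percentile. Within 100 bp of that summit, 6 of the 10 genes held an IRF match (H2-K1, H2-D1, B2m, Tap2, Nlrc5 and Psmb8). Among 7301 genes with a promoter peak in all 4 lists, 11.1% held one in a window chosen the same way. Some strongest summits of other lists lay farther from the match. For Tap2, taken from CDK6-K43M replicate 1, those of the other lists lay at 2438 to 2519 bp. For H2-D1 those of the replicate 2 lists lay at −59 and 11 bp, and for Nlrc5 that of CDK6-WT replicate 1 at −115 bp. In the 200 bp upstream of the main start, 3 of the 10 genes held an IRF match (H2-K1, B2m and Tap2), beside 16.2% of 21910 promoters. The exact kappa B sequence GGGGATTCC lay in the summit windows of H2-K1 and H2-D1 and in 0.151% of those 7301 windows. It lay within 15 bases of an IRF match in 1 of the 7301, that of H2-D1. H2-K1, with a peak in 3 lists, is outside that set. Other forms of the kappa B site were not searched, in B2m or elsewhere. These shares are therefore those of 1 sequence and not of kappa B sites in general. H2-K1 and H2-D1 are near-identical copies here and count as related sequence, not as separate observations. The NRF-1 motif GCGCATGCG was in no summit window of the 10 genes and in 4.1% of the 7301. A match is a run of letters and was not tested as a binding site.

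CDK6 peaks lay at the promoters of nearly all of these genes in both variants. A promoter peak was present for 10 of 10 genes in CDK6-WT replicate 1, 10 in CDK6-WT replicate 2, 10 in CDK6-K43M replicate 1 and 9 in CDK6-K43M replicate 2. The corresponding shares of all protein-coding genes were 47.0%, 40.1%, 48.5% and 39.4%. In all 4 lists, 9 of 10 had one, beside 33.2% of all protein-coding genes, and the exception was H2-K1, which had none in CDK6-K43M replicate 2. None of the 10 was without a promoter peak in every list, as 48.2% of all protein-coding genes were. At the main transcript start alone, 5 of 10 had a peak in all 4 lists (H2-D1, B2m, Tap1, Nlrc5 and Psmb9), beside 29.0% of all genes. With transcripts of the annotation's basic set only, the count was again 5, those lacking a peak in some list being H2-K1, Tap2, Tapbp, Psmb8 and Psmb10, while it was 31.2% of all genes. Tap2, Tapbp, Psmb8 and Psmb10 thus counted in all 4 lists only with starts of transcripts outside that set.

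The peaks were of middling strength in their lists, apart from Nlrc5. Over the 9 genes with a promoter peak in all 4 lists, the median percentile was 66.6 in CDK6-WT replicate 1, 43.9 in CDK6-WT replicate 2, 69.9 in CDK6-K43M replicate 1 and 40.3 in CDK6-K43M replicate 2. Over all 7303 genes with a promoter peak in all 4 lists it was 84.3 and 63.4 in CDK6-WT and 86.1 and 62.8 in CDK6-K43M, so that the median of the class I genes lay below that of all such genes in each of the 4 lists. With peaks of a −log10 q of at least 10, only Nlrc5 remained in all 4 lists, together with 8.43% of all genes.

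**Figure D1:**
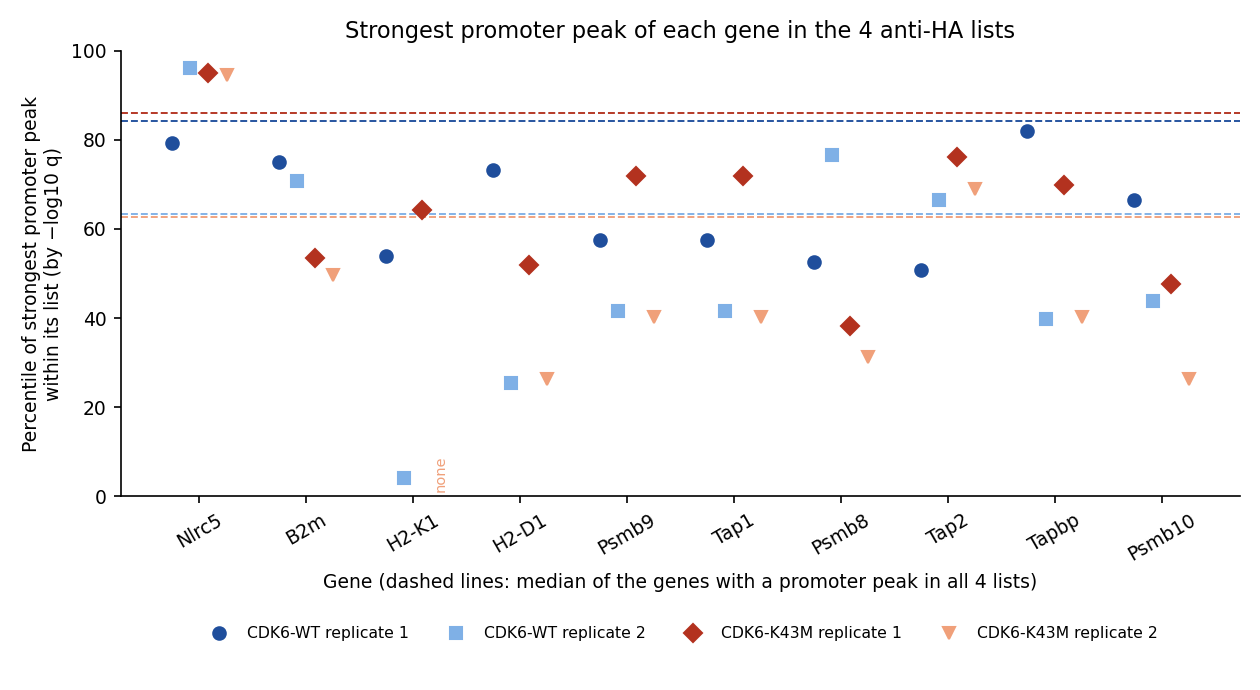
Percentile by −log10 q of the strongest promoter peak of each gene (x axis) within its own list (y axis, 0 to 100), 1 symbol per library, with dashed lines at the median of the 7303 genes with a promoter peak in all 4 lists. Nlrc5 reached 94.5 to 96.0 in 3 libraries, most other values lay below the line of their library, and H2-K1 had no peak in CDK6-K43M replicate 2.

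Nlrc5, the transactivator (ENSMUSG00000074151, chr8:94434356-94527272, plus strand), had the highest percentile of the group in 3 of the 4 lists, with Tapbp above it in CDK6-WT replicate 1. The percentile was 79.2 in CDK6-WT replicate 1, 96.0 in CDK6-WT replicate 2, 95.1 in CDK6-K43M replicate 1 and 94.5 in CDK6-K43M replicate 2, at a fold enrichment over local background of 10.6, 12.9, 15.9 and 12.4. The summits lay at −115, −16, −63 and −66 bp, and the IRF match of the printed stretch lies from 2 to 9 bp. The CDK6-K43M percentiles fell inside the range of the CDK6-WT percentiles, while the fold enrichment of 15.9 in CDK6-K43M replicate 1 lay above both CDK6-WT values. The mean percentile of 94.8 ± 0.408 (SD, n = 2) in CDK6-K43M and 87.6 ± 11.9 (SD, n = 2) in CDK6-WT differed by less than the spread of CDK6-WT (exact two-sided permutation test, p = 1).
The upstream 200 bases of Nlrc5, on the plus strand at chr8:94434191-94434390, held the summits of all 4 libraries and no match to any of the 7 motifs searched, so that no letter is in capitals.
Nlrc5: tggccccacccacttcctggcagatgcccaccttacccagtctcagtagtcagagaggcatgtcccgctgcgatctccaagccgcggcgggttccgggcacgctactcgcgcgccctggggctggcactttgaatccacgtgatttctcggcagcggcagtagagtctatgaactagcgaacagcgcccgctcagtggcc
Further peaks were found in 4 of 4 lists at the far end of the Nlrc5 promoter window, with summits between −2018 and −1988 bp and percentiles of 66.1, 94.3, 83.4 and 92.3. In the replicate 2 lists this upstream peak was 1556 bp and 1926 bp wide, against 296 bp and 393 bp in the replicate 1 lists. An intronic peak with summits at 24352, 24429, 24402 and 24378 bp was also in all 4 lists. Its percentile was 38.0 in CDK6-WT replicate 1 and 61.4 in CDK6-K43M replicate 1, and 96.1 in CDK6-WT replicate 2 and 91.5 in CDK6-K43M replicate 2, so that both replicate 2 lists lay above both replicate 1 lists whichever variant was expressed.

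B2m, the light chain shared by all class I molecules (ENSMUSG00000060802, chr2:122147686-122153083, plus strand), had a promoter peak in all 4 lists with summits only 41 bp apart. They lay at −107 bp in CDK6-WT replicate 1, −148 in CDK6-WT replicate 2, −121 in CDK6-K43M replicate 1 and −130 in CDK6-K43M replicate 2, within 30 bp of the IRF match printed above. The percentile was 75.0 and 70.9 in CDK6-WT and 53.6 and 49.7 in CDK6-K43M, so the groups did not overlap. The mean was 72.9 ± 2.91 (SD, n = 2) in CDK6-WT and 51.6 ± 2.78 (SD, n = 2) in CDK6-K43M, a difference of −21.3, and −21.4 and −21.2 within replicate numbers 1 and 2. The exact two-sided permutation test over the 6 assignments of the libraries gave p = 0.33, the smallest that 2 against 2 allows. On the fold enrichment itself (8.73, 7.22, 6.22 and 5.61 in the same order) the log2 difference was −0.39 ± 0.39 (SE), with a Benjamini-Hochberg adjusted p of 1.00 by limma. The CDK6-K43M replicate 1 list held 4 further peaks in the B2m promoter window, at −1811, −1567, −863 and −638 bp, with percentiles between 1.03 and 39.2, and CDK6-WT replicate 2 held 2, at −1690 and 94 bp, with percentiles of 0.953 and 10.2. An intronic peak at 970 and 997 bp was in both replicate 1 lists only. B2m lies inside Patl2, which is on the opposite strand, and a ChIP-seq peak has no strand.

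The heavy chains H2-K1 and H2-D1 present the peptides, and their peaks were among the weakest of the group in the replicate 2 lists. H2-K1 (ENSMUSG00000061232, chr17:33996017-34000347, minus strand) had a percentile of 53.9 in CDK6-WT replicate 1, 4.13 in CDK6-WT replicate 2 and 64.2 in CDK6-K43M replicate 1, with no peak in CDK6-K43M replicate 2. The summits at −48, −162 and −167 bp lay on either side of the kappa B and IRF stretch. With 1 list lacking a peak, the permutation test was not made, and in the limma fit without CDK6-K43M replicate 2, where the lone CDK6-K43M library is assumed to vary like the others, the log2 difference in fold enrichment was −0.07 ± 0.45 (SE), with an adjusted p of 1.00. H2-D1 (ENSMUSG00000073411, chr17:35262730-35267499, plus strand) had percentiles of 73.2 and 25.5 in CDK6-WT and 51.8 and 26.4 in CDK6-K43M, which overlapped (difference −10.3, exact two-sided permutation p = 1). Its summits lay at 157 and 211 bp in the replicate 1 lists, beside the kappa B and IRF stretch at 193 to 221 bp, and at −59 and 11 bp in the replicate 2 lists. In the replicate 2 lists the H2-D1 peaks were 178 and 194 bp wide, against 629 and 696 bp in the replicate 1 lists, and both ended upstream of that stretch.
Reads that map to several places had been removed before peak calling, and class I genes are copies of each other. Of the 50-base words of the main promoter window, 10.2% occurred again on chromosome 17 for H2-K1 and 1.35% for H2-D1, and in the 200 bp upstream of the main start 0 of 151 did for H2-K1 and 18 of 151 for H2-D1. The windows of these genes do not cover matching sequence. That of H2-K1 held the kappa B and IRF stretch, at −111 to −83 bp. That of H2-D1 ended 200 bp after the start and left out most of the stretch, at 193 to 221 bp, and part of the replicate 1 peaks. The part that removed reads have in the missing or weak peaks was not tested.

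**Figure D2:**
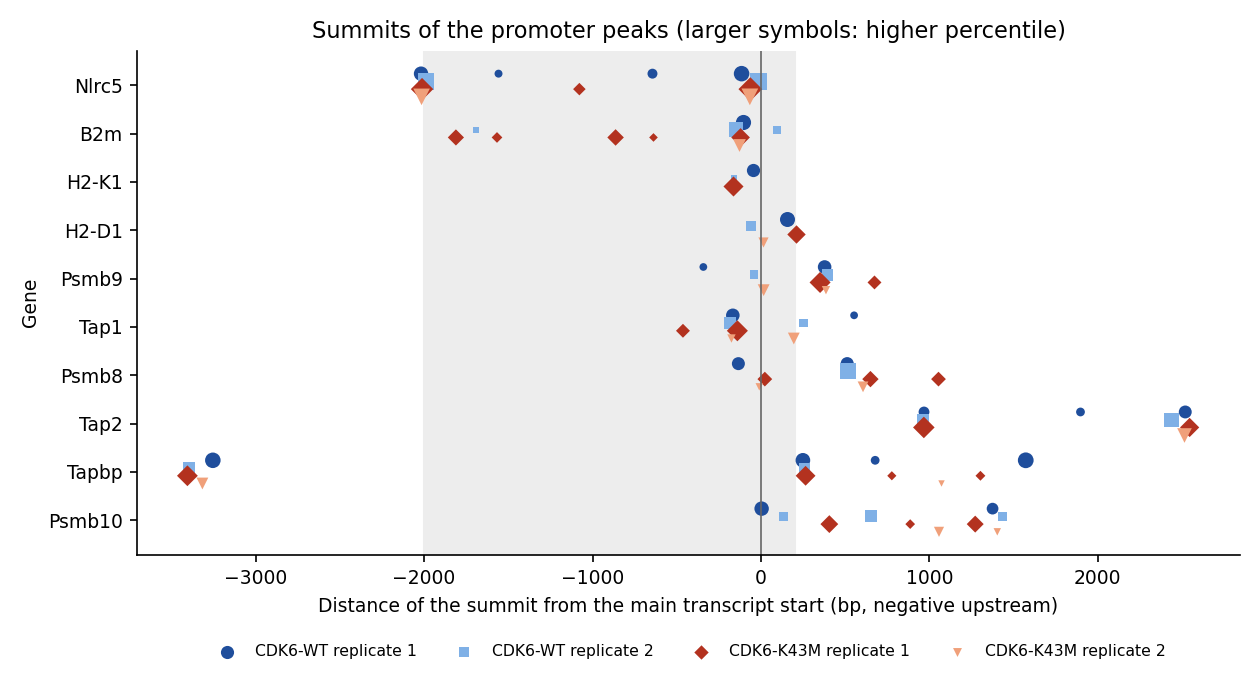
Distance of the summit of every promoter peak from the main transcript start of its gene (x axis, bp), 1 symbol per peak and library, larger at a higher percentile, with the stretch from 2000 bp before to 200 bp after it in grey. The B2m summits near the start lay at −107 to −148 bp in the 4 libraries, Tap2 had no peak in the grey window, and the Tapbp peaks at −3405 to −3254 bp lie at a secondary start.

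Tap1, a subunit of the peptide transporter (ENSMUSG00000037321, chr17:34187553-34197225, plus strand), and Psmb9, an immunoproteasome subunit (ENSMUSG00000096727, chr17:34181987-34187764, minus strand), start head to head with main starts 211 bp apart and overlapping, and every promoter peak of one was a promoter peak of the other. The strongest shared peak had percentiles of 57.4 and 41.5 in CDK6-WT and 71.9 and 40.3 in CDK6-K43M, which overlapped (difference 6.62, exact two-sided permutation p = 1). In CDK6-WT replicate 1 and CDK6-K43M replicate 1 a wide peak of 666 and 605 bp covered both starts. In the replicate 2 lists it was split into separate peaks on the Tap1 upstream side (summits at −184 and −175 bp from the Tap1 start) and near the Psmb9 start (summits at −42 and 16 bp from the Psmb9 start). Of these, the peak upstream of Tap1 was the stronger in CDK6-WT replicate 2 (41.5 against 14.2). The other was the stronger in CDK6-K43M replicate 2 (40.3 against 13.7). Secondary starts lay nearer than the main ones and gave the other gene of the pair. The peak upstream of Tap1 had its summits at −4 and −13 bp from a Psmb9 start. The other peak had its summits at 4 and 14 bp from Tap1 starts. The summit window held SP1 (GGGGCGGGG) and NFY matches, which 12.8% and 23.2% of the 7301 windows held. The peaks cannot be assigned to one gene of the pair.

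Psmb8, the immunoproteasome subunit encoded 10.2 kb from the Tap1 start (ENSMUSG00000024338, chr17:34197721-34201454, plus strand), had its strongest peak inside the gene in all 4 lists, at 512, 515, 650 and 606 bp. The percentile was 52.6 and 76.7 in CDK6-WT and 38.2 and 31.3 in CDK6-K43M, without overlap, with means of 64.7 ± 17.0 and 34.8 ± 4.85 (SD, n = 2 each). The difference was −29.9 (exact two-sided permutation p = 0.33, the smallest possible), and −14.4 and −45.4 within replicate numbers 1 and 2. The log2 difference in fold enrichment was −0.58 ± 0.43 (SE), with a limma adjusted p of 1.00. The reads over the summit were 18, 22, 19 and 13, and their exact Poisson 95% intervals all overlapped. A separate peak at the main start was in 3 lists, with summits at −134, 23 and −10 bp and none in CDK6-WT replicate 2. The overlapping IRF matches of Psmb8 lay at 555 to 568 bp, between those summits inside the gene.

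Tap2, the other subunit of the transporter (ENSMUSG00000024339, chr17:34203527-34216321, plus strand), had no peak at its main start in any list. Its promoter peaks lay near secondary starts, at 963 to 968 bp in 3 lists (not CDK6-K43M replicate 2) and at 2438 to 2545 bp in all 4. The first of them coincided with the overlapping IRF matches, whose stretch had its midpoint 9 bp from the CDK6-K43M replicate 1 summit. The strongest promoter peak had percentiles of 50.8 and 66.4 in CDK6-WT and 76.1 and 68.9 in CDK6-K43M, which did not overlap (difference 13.9, exact two-sided permutation p = 0.33, the smallest possible). That value compared different places, since the strongest peak lay near 967 bp in CDK6-K43M replicate 1 and at 2438 to 2519 bp in the other lists. Compared within the second place alone, the percentiles were 50.8 and 66.4 in CDK6-WT and 57.7 and 68.9 in CDK6-K43M, which overlapped. A peak at 7193 to 7329 bp, outside any promoter window, had a higher percentile than the promoter peaks in all 4 lists and stood at 61.6 and 89.7 in CDK6-WT and 95.5 and 91.6 in CDK6-K43M. Of the 50-base words of the Tap2 main promoter window, 25.6% occurred again on the chromosome, and 0 of 151 did in the 200 bp before the main start. The part that removed reads have in the lack of a peak there was not tested.

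**Figure D3:**
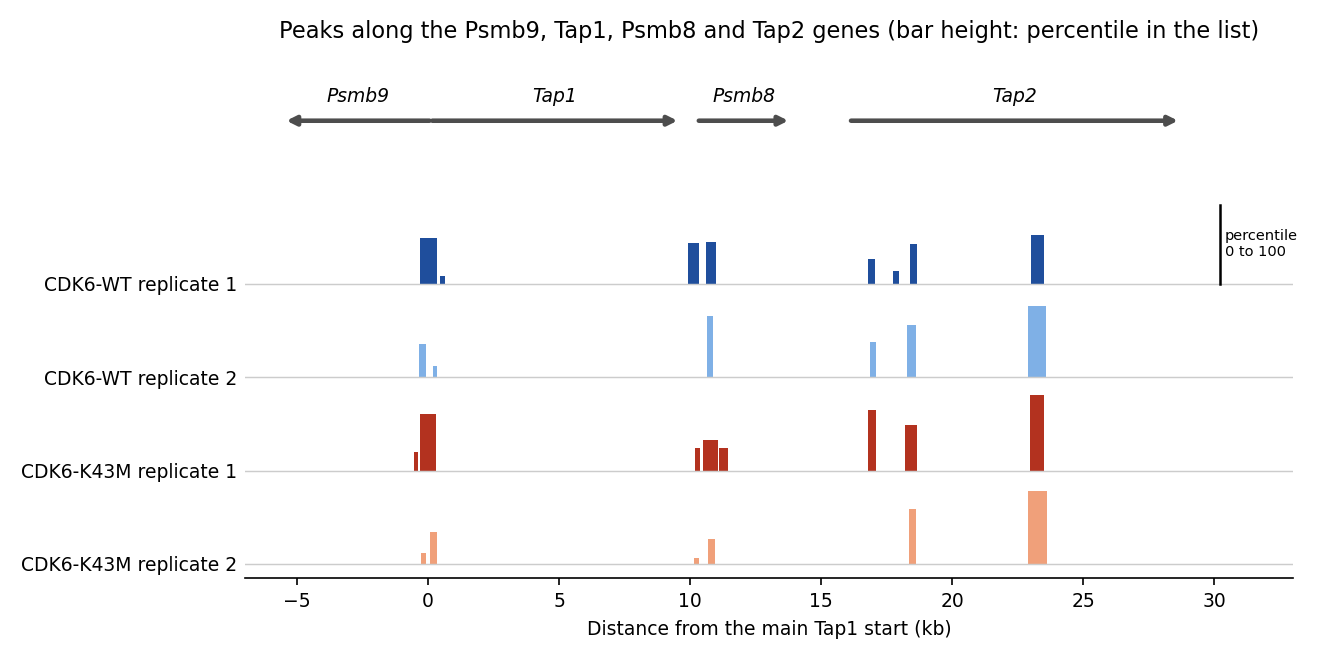
Peaks of the 4 libraries along the Psmb9, Tap1, Psmb8 and Tap2 genes (x axis, kb from the main Tap1 start; arrows, gene extents and direction), with bar height giving the percentile of the peak in its list from 0 to 100. The shared Psmb9 and Tap1 peak at 0 kb is 1 bar in the replicate 1 lists and 2 in the replicate 2 lists, and the intragenic Tap2 peak reached 89.7 to 95.5 in all libraries but CDK6-WT replicate 1.

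Tapbp, the peptide loading factor (ENSMUSG00000024308, chr17:33915899-33929292, plus strand), had several peaks over its first exons. Its strongest promoter peak had percentiles of 81.9 and 39.8 in CDK6-WT and 69.9 and 40.3 in CDK6-K43M, which overlapped (difference −5.78, exact two-sided permutation p = 1). In 3 of the 4 lists that strongest peak lay at a far upstream secondary start, between −3405 and −3316 bp, where the start of Zbtb22 was the nearest coding start. In CDK6-WT replicate 1 it lay at 1572 bp and was 855 bp wide, reaching the window of a secondary start. A peak of 267 bp at 1616 bp in CDK6-K43M replicate 1 stood at 89.95 but reached no promoter window, and CDK6-WT replicate 2 had no peak there. A peak 249 to 265 bp after the main start had percentiles of 69.0, 32.0 and 62.2 and was absent from CDK6-K43M replicate 2. When the window was set to 500 bp before and after each start, it took in that peak at 1616 bp and the difference turned to 4.27. A region over the end of Tapbp, nearest to the start of Rgl2, had a peak in all 4 lists, of which those of the replicate 1 lists reached into Tapbp (summits at 10153 and 10143 bp, percentiles of 92.2 and 95.1).

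Psmb10, the third immunoproteasome subunit (ENSMUSG00000031897, chr8:105935735-105938444, minus strand), had weak peaks spread over the gene. The percentile was 66.6 and 43.9 in CDK6-WT and 47.7 and 26.4 in CDK6-K43M, which overlapped (difference −18.2, exact two-sided permutation p = 0.667), and the differences within replicate numbers were −18.9 and −17.5. The strongest peak lay at 4 bp in CDK6-WT replicate 1, 654 bp in CDK6-WT replicate 2, 406 bp in CDK6-K43M replicate 1 and 1057 bp in CDK6-K43M replicate 2, and the first 3 of these fell in 1 joined region of 844 bp. A weaker peak at 1272 to 1434 bp was in all 4 lists, with percentiles of 39.4, 14.2, 42.0 and 7.79.

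Most of the class I regions were in lists of both variants. After peaks that overlapped between lists were joined, the 10 genes had 31 regions, 23 at promoters and 8 only in gene bodies, and 3 of them were shared by Tap1 and Psmb9. A region was called bound by both variants with a peak in at least 3 lists, and unique to a variant with a peak in both of its lists and in neither of the other's. Of the 31, 17 were bound by both, beside 40.5% of 56748 regions over the genome. None was unique to CDK6-WT (0.359% over the genome) and 1 was unique to CDK6-K43M (1.26% over the genome), a Psmb10 region at chr8:105937341-105937660 with percentiles of 4.84 and 26.4. The other 13 were in 1 or 2 lists only, without being unique to a variant (57.9% over the genome), and of these 2 were in both replicate 1 lists alone (13.0% over the genome) and 1 in both replicate 2 lists alone (6263 of the 56748 over the genome).

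No promoter was called different in fold enrichment between the variants. limma on the log2 fold enrichment of the strongest promoter peak, centred on the median of each list, called 0 of 7303 genes (0%) at a Benjamini-Hochberg adjusted p under 0.05, while 13 had an unadjusted p under 0.05, and the adjustment was over all genes tested. The 9 class I genes in the fit had log2 differences from −0.58 (Psmb8) to 0.30 ± 0.44 (SE, Nlrc5), with standard errors of 0.33 to 0.44. The percentile was lower in CDK6-K43M on average for 5 of the 9. The groups did not overlap for 3 of the 9, B2m and Psmb8 with CDK6-WT higher and Tap2 with CDK6-K43M higher, beside 10.4% of all 7303 genes, of which 3.61% had CDK6-WT higher and 6.78% CDK6-K43M higher. The sign was the same within both replicate numbers for 4 of the 9, beside 50.8% of the 7303.

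The values also moved with the replicate number. Both replicate 1 lists lay above both replicate 2 lists for 5 of the 9 genes, beside 69.3% of the 7303. Tap1 and Psmb9 share their strongest peak and are not independent, though both enter this and the other counts and medians. The number of reads over each summit was solved, as a whole number, from the fold enrichment and p-value of the peak. The solution matched the −log10 p to within 0.001 for 100% of peaks. At the strongest promoter peaks the number of reads was low: 11 to 52 reads over a local background of 1.54 to 4.93 reads. For H2-K1 it was 24, 11 and 36, for B2m 30, 21, 27 and 14, for Tap1 and Psmb9 25, 16, 36 and 14, and for Nlrc5 28, 41, 52 and 33. The median summit of a whole list held 20, 18, 23 and 15 reads in the same order, and the relative depth was 10.08, 10.49, 12.04 and 9.56 reads per kb. The part of depth in the differences between libraries was not tested.

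**Figure D4:**
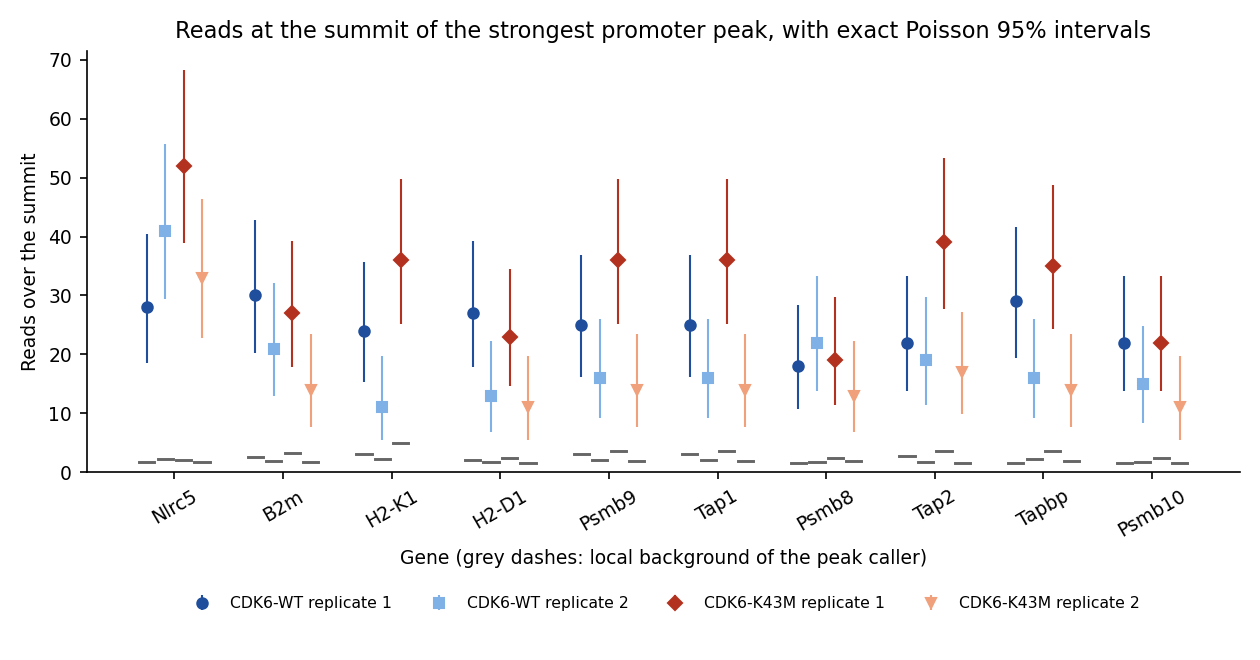
Reads over the summit of the strongest promoter peak of each gene in each library (y axis), with exact Poisson 95% intervals, which cover counting error only, and the local background of the peak caller as grey dashes. Nlrc5 had 28 to 52 reads, the 4 intervals of B2m overlapped, and CDK6-K43M replicate 1 had more reads than CDK6-K43M replicate 2 for each gene with a peak in both.

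The other genes of the pathway had promoter peaks to unequal degrees. Among 10 protein-coding genes for other, nonclassical class I heavy chains, 2 had a promoter peak in all 4 lists (H2-T22 and H2-T24) and 4 in none (H2-Q1, H2-Q2, H2-Q6 and H2-Q10). The percentile of H2-T24 was 82.8, 43.9, 88.6 and 78.9, and that of H2-T22 was 55.2, 10.2, 59.3 and 12.3. These genes are copies of one another as well, with the same limit on uniquely mapped reads. Among 5 genes of peptide loading and trimming, the chaperone gene Canx and the disulfide isomerase gene Pdia3 had a peak in all 4 lists, the chaperone gene Calr and the peptide trimming gene Erap1 in 3 and the tapasin relative Tapbpl in 1. Of the proteasome activator genes, Psme2 and Psme3 had one in all 4 lists and Psme1 in both replicate 1 lists. The constitutive proteasome subunits that Psmb8, Psmb9 and Psmb10 replace are encoded by Psmb5, Psmb6 and Psmb7. Psmb6 and Psmb7 had a promoter peak in all 4 lists, and Psmb5 in 3, not in CDK6-K43M replicate 2. The percentiles were 98.1, 87.1, 97.9 and 41.5 for Psmb6 and 88.3, 50.1, 88.0 and 12.3 for Psmb7.
Among 14 genes for regulators of class I expression, 9 had a promoter peak in all 4 lists and none was without one. The 5 exceptions were Rfx5, Rfxank and Atf1 with 3 lists, and Irf2 and Stat2 with both replicate 1 lists. Irf1, which encodes an activator of class I genes, stood at 85.9, 71.4, 94.6 and 68.9. In the MHC class II pathway, which presents peptides from outside the cell, 4 of 10 genes had a promoter peak in all 4 lists, and these included Ciita, the transactivator related to Nlrc5, with percentiles of 69.1, 97.9, 78.2 and 99.3. H2-Aa, H2-Eb1, H2-DMb1 and Cd74 had none in any list, and H2-Ab1 and H2-Oa had one in CDK6-K43M replicate 1 only.

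**Figure D5:**
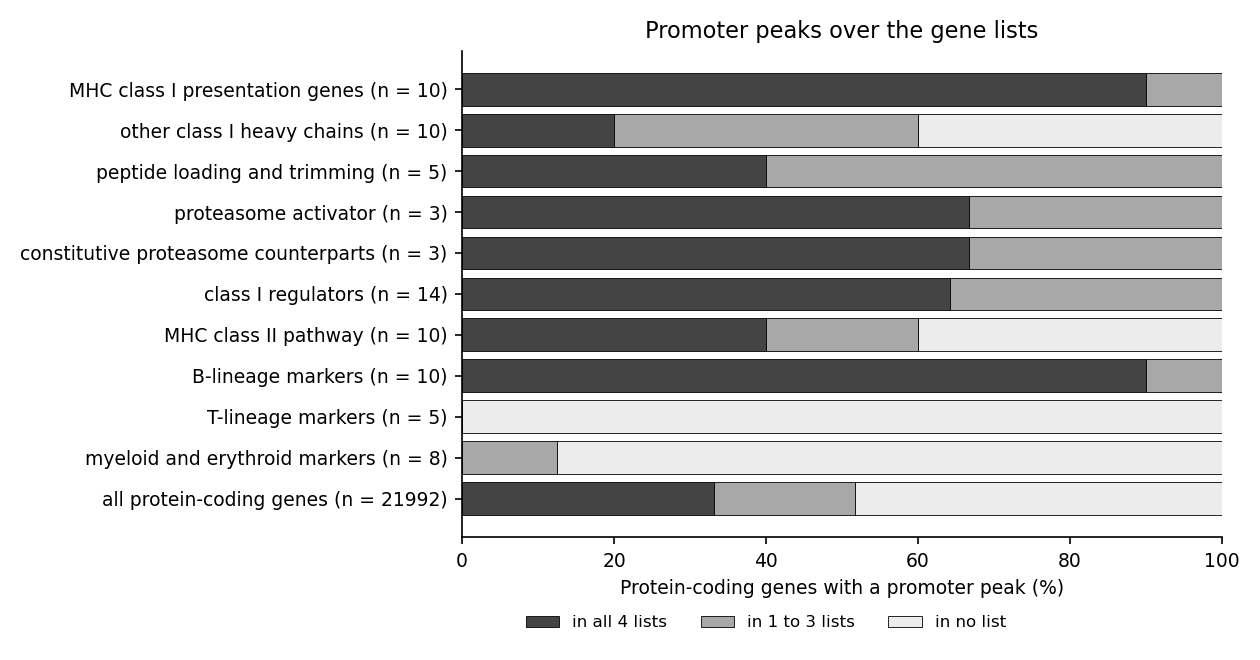
Share of the protein-coding genes of each list (y axis, with the number of genes) that had a promoter peak in all 4 lists, in 1 to 3 lists or in none (x axis, %). The class I presentation genes and the B-lineage markers each had 9 of 10 in all 4 lists, beside 33.2% of all protein-coding genes, and the T-lineage markers had none.

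The CpG content of the class I promoters varied from gene to gene. The observed over expected CpG ratio within 500 bp to either side of the main start was 0.795 for H2-K1, 0.606 for B2m, 0.522 for H2-D1 and 0.502 for Nlrc5, beside a median of 0.571 over 21910 genes. It was 0.663 for Tap1, 0.658 for Psmb9, 0.58 for Psmb8 and 0.505 for Tapbp. It was lowest for Tap2, at 0.119, and Psmb10 followed at 0.265. The ratio was not taken at the secondary starts, where the Tap2 promoter peaks lay. A relation of CpG content to the peaks was not tested.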

How the data were processed

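Anti-HA ChIP-seq of 4 libraries (CDK6-WT and CDK6-K43M, 2 each) was used. Per the labels and the methods, the authors checked reads with FastQC 0.11.5, trimmed them with Trimmomatic 0.36, aligned them to mm10 with BWA 0.7.15, removed blacklisted regions with bedtools and multimapping and low-quality reads with SAMtools 1.3.1, and called peaks per library with MACS2 2.1.0. The read length is not given in the sources used here. The deposited peak lists hold, per peak, the fold enrichment over local background (a ratio), −log10 p and −log10 q, an integer score derived from the latter, and the summit as an offset from the start (the other deposited column used). No read counts were among the deposited values used.

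Genes, transcript starts and untranslated parts came from GENCODE M21 and sequences from the mm10 genome of RefSeq (GRCm38). Peaks were matched to promoters by at least 1 bp of overlap. A merged region joined peaks that overlapped between lists. Percentiles ranked −log10 q within a list. The number of reads at a summit was solved from fold enrichment and −log10 p under the Poisson model of MACS2, to within 0.001 in −log10 p, and gave exact Poisson 95% intervals for counting error only. These reads served as an alternative measure. Differences between variants were tested over the 4 libraries with limma 3.58.1 (R 4.3.3) on log2 fold enrichment, Benjamini-Hochberg adjusted over all genes with a promoter peak in all 4 lists, and per gene with exact two-sided permutation tests over 6 assignments. No further pseudocount was added before the log. The MACS2 fold enrichment already holds a pseudocount of 1 on the scaled reads and on the background. The scripts were tested on simulated data. Motifs were searched on both strands with Python 3.11.15.

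The genes named are the 10 members, the genes of the pathway and marker lists that lack a promoter peak in at least 1 list, and all of a list of up to 6 genes; the members and lists were chosen with earlier results of these data known. H2-T22, H2-T24, Irf1 and Ciita were named after their values were seen, and H2-T10 and Trac, which the annotation does not class as protein-coding, were left out of the counts. H2-Q4, H2-Q7, H2-T23 and H2-M3 had a promoter peak in 1 to 3 lists. With 2 libraries per variant, the same-numbered libraries deviated together (correlation of 0.69 over 7303 genes), but 2 pairs do not establish that the numbers pair the samples.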

Additional observations from a re-analysis of the deposited data

How the results depend on the processing

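With 2 libraries per variant no exact test can fall below p = 0.33, and a peak list shows only what passed its threshold, at summits of 11 to 52 reads. The count of 9 class I genes with a promoter peak in all 4 lists became 5 with basic transcripts only and 1 with a minimum −log10 q of 10, and that of all genes, 7303, became 1853 with a minimum −log10 q of 10. Under the other settings (minimum −log10 q of 5, equal list length, summit in the window, window of 500 bp) the class I count was 6 to 9, and without each library in turn it was 9 to 10. limma called 0 genes under each alternative, including the replicate block, under which 372 genes had an unadjusted p under 0.05 instead of 13 and the smallest adjusted p was 0.361, and including the recovered summit reads, an alternative chosen after seeing the data (11 unadjusted). Without each library in turn it called 0 genes as well. The difference in percentile of Tapbp turned from −5.78 to 4.27 with a window of 500 bp, which took in the CDK6-K43M replicate 1 peak at 1616 bp. Without each library in turn, the difference ranged from −34.1 to 13.6 for H2-D1, −9.16 to 22.4 for Tap1 and Psmb9, −26.8 to 15.2 for Tapbp and −1.20 to 15.6 for Nlrc5, turning sign for these 5 genes. It kept its sign for B2m (−23.4 to −19.3), Psmb8 (−41.9 to −17.9), Psmb10 (−29.5 to −6.83) and Tap2 (6.09 to 21.7). A replicate block cannot change a difference of means in this balanced layout and so is no check of it. The sign of the difference held within both numbers for 4 of 9 genes. In limma, the block brought the standard errors of the 9 genes to between 0.254 and 0.260, from 0.33 to 0.44. The lowest unadjusted p of the 9 genes by limma was 0.0276 with the block, for Psmb8, against 0.221 for Psmb8 without it. The adjusted p of the 9 genes by limma with the block was 0.935 to 0.991.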
